A study of Homo sapiens with 18 samples.

Results

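The serum response factor gene *SRF* and 9 genes of actin filaments, the actin isoforms *ACTB*, *ACTG1*, *ACTA2* and *ACTC1*, the transgelins *TAGLN* and *TAGLN2*, and the calponins *CNN1*, *CNN2* and *CNN3*, were examined in human pancreatic progenitors. The genes were chosen by symbol, and all 10 were found among the 21944 genes that the authors listed. The study asked how reseeding on a laminin or on fibronectin changes gene expression in these progenitors over time, in search of what links adhesion to the matrix with the endocrine fate. Embryonic stem cells were differentiated to day 19 pancreatic progenitors, detached with accutase and seeded again in wells coated with laminin-411 (LN411) or with fibronectin (FN), and poly(A) RNA was collected after 3, 6 or 24 h. There were 3 samples in each of the 6 groups and 18 in all. All groups shared the differentiation, the detachment and the reseeding, so no group was left on its first coating. The labels name HUES4 as the cell line, whereas their growth protocol names NGN3-GFP cells derived from SA121, an embryonic stem cell line that carries a reporter of endocrine progenitors. The study describes the sequenced progenitors as derived from the NGN3-GFP line, so the labels do not settle the line.

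The level reported for each gene is the authors' mean normalized count, a count of reads per gene that was scaled between libraries and averaged over the samples of their fit. It is a single pooled value, without an SD or an n, and it was the same at 3, 6 and 24 h to within a relative gap of 4.89e-07. Values of single samples were not used here. LN411 and FN were therefore not compared, no spread goes with any level, and no neighbours in the order of levels could be tested against each other. The depth of the single libraries is unknown from this value. A level describes the whole RNA of a well, in which fewer cells of a type and less RNA per cell cannot be told apart.

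Actin is built from closely related isoforms. *ACTB* and *ACTG1* encode the cytoplasmic β- and γ-actin of nearly every cell, *ACTA2* encodes the α-actin of vascular smooth muscle and *ACTC1* that of the heart. Monomeric actin holds the cofactors MRTFA and MRTFB in the cytoplasm. When actin polymerises these are released to the nucleus, where they act with SRF on promoters that carry a short AT-rich element, the CArG box. Genes of actin and its binding proteins are classical targets of SRF, as is *SRF* itself. Transgelins and calponins are related proteins that bind actin filaments. *TAGLN* and *CNN1* are known from smooth muscle, whereas *TAGLN2*, *CNN2* and *CNN3* are found in many other cells.

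The progenitor label was checked against markers. Of 8 genes of pancreatic progenitors, 7 had a mean normalized count of at least 1000, as had 7968 of the 21944 listed genes. The 7 included *GP2*, a surface marker of these progenitors, at 135959, and the transcription factor genes *SOX9* at 20672 and *PDX1* at 12933. *PTF1A*, known from early progenitors and acinar cells, was the exception at 12.5. Of 7 genes of smooth muscle, 6 were listed and 4 of these were under 100, as were 8826 of the 21944 listed genes. *DES*, the muscle intermediate filament gene, was the lowest at 6.47, whereas *CALD1*, the caldesmon gene that is also used outside muscle, stood at 36712 and *SMTN*, the smoothelin gene, at 2333. Of 6 genes of striated muscle, 4 were listed, from 40.4 for *MYH7* to 203 for *MYH6*. The mesenchymal markers ranged from 114 for *PDGFRB* to 6543 for *VIM* over the 5 of 6 that were listed. Of these, 2 had at least 1000, *VIM* and the collagen gene *COL1A1*, which stood at 4091, above 86.3% of listed genes. The other listed mesenchymal markers were under 1000. All 3 endothelial markers were under 100, with *CDH5* the lowest at 5.12. The part of such cells in the levels below was not tested.

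The transcription factor gene *SRF* (ENSG00000112658, chromosome 6, 43171269 to 43181506, plus strand, GRCh38, 7 exons) had a mean normalized count of 4794. This was above 88.6% of all listed genes. Per kb of exon its level was 1133, above 91.2% of genes. SRF works with partners, and all 6 cofactor genes were listed. *MRTFA* stood at 2315 and *MRTFB* at 4856 mean normalized counts, and *MYOCD*, the gene of the related cofactor myocardin known from heart and smooth muscle, at 9434. Among the ternary complex factors, which act with SRF in response to growth factor signals, *ELK1* stood at 1818, *ELK4* at 1744 and *ELK3* at 355. Per kb of exon, which allows a comparison between genes, the order of the levels was *MYOCD* at 1063, *ELK1* at 535, *MRTFA* at 316, *MRTFB* at 293, *ELK4* at 143 and *ELK3* at 76.4. *SRF* was thus slightly above *MYOCD* and above the other 5 on this scale. Undivided, *MYOCD* at 9434 and *MRTFB* at 4856 were above *SRF* at 4794. The place of *SRF* among its cofactors thus moved with the division by length, and no other length was tried for the cofactors. The median over all listed genes was 76.2 per kb.

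The promoter sequences bear on the genes as targets of SRF. RefSeq promoter windows, from 250 bases before to 50 bases after an annotated start (GRCh38.p14), were matched by symbol for 8 of the 10 genes, in 15 windows. *ACTB* and *TAGLN* had no window. A CArG box, 10 bases with a pair of C at one end, a pair of G at the other and A or T between them, reads as a CArG box on both strands. It was found in 4 of the 8 genes, *SRF*, *ACTG1*, *ACTC1* and *CNN2*, against 1.60% of all 27305 genes with a window. Since known SRF targets were among the reasons to group these genes, this count is a description. A stretch around each match is shown 5′ to 3′ on the strand of the gene, with the box in capitals and only bases before the start printed.
SRF, chr6:43171209-43171268, plus strand: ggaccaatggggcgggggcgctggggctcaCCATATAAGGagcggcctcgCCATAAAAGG
ACTG1, chr17:81512854-81512923, minus strand: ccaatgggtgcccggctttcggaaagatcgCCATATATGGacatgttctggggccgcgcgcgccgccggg
ACTC1, chr15:34795619-34795688, minus strand: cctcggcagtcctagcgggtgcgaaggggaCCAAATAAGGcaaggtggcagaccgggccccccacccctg
CNN2, chr19:1026489-1026558, plus strand: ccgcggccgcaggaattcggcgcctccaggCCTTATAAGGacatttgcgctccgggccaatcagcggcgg

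None of these stretches overlapped an annotated exon. Those of *SRF* and *CNN2* lay in no annotated gene, that of *ACTG1* in an intron of the longer *ACTG1* transcripts, and that of *ACTC1* in an intron of *GJD2-DT*, a non-coding gene on the other strand. *SRF* held 2 boxes, which began 30 and 10 bases before its start, so the second ended at the last base before the start. The box began 94 bases before the start in *ACTG1*, 89 in *CNN2* and 109 in *ACTC1*. The other conventional actin genes, which were not among the 10, also had boxes, which began 97 bases before the start in *ACTA1* and 110 and 73 bases before it in *ACTG2*. With 1 mismatch allowed among the 6 central bases, *ACTA2* joined, which made 5 of 8 genes against 9.88% of all genes. Its matches began 121 and 71 bases before the start, and the sequence is shown because this gene is the classical smooth muscle target. The stretch lay in introns of the longer *ACTA2* transcripts and of *STAMBPL1* on the other strand.
ACTA2, chr10:88952805-88952924, minus strand: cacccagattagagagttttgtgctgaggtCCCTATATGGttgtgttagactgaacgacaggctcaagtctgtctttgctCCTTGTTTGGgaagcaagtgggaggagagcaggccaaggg

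The promoter element TATAAA was searched on both strands and found in *ACTC1* and *SRF*, against 14.0% of all genes with a window. In *ACTC1* it lay on the strand of the gene, 31 bases before the start. In *SRF* it read TATAAA on the other strand, and the match began 14 bases past the start. No match for a CArG box or its 1-mismatch form was found in the windows of *TAGLN2*, *CNN3* and *CNN1*, which says only that these letters are not in these windows.

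**Figure D1:**
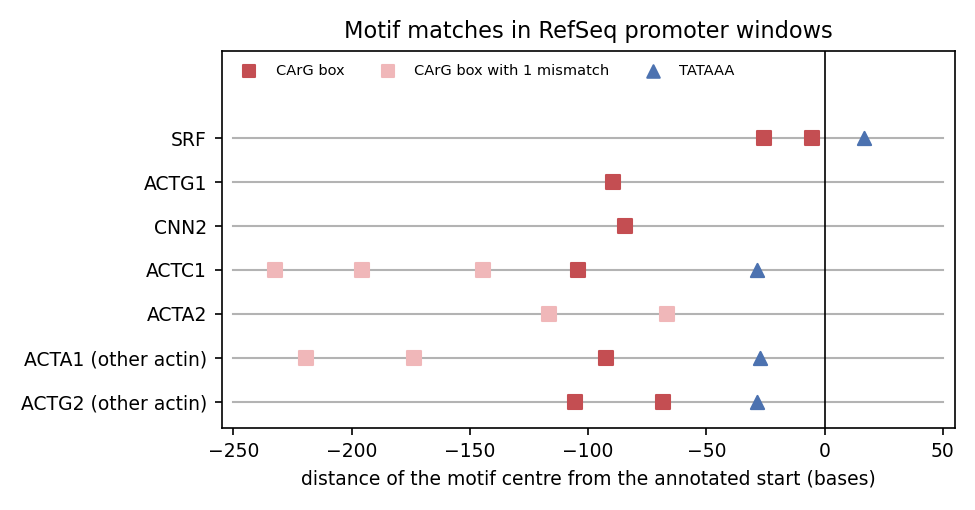
Position of motif matches in 300-base promoter windows. The x axis gives the distance of the centre of each match from the annotated start in bases, each grey line is the window of 1 gene, and squares and triangles mark the motifs. The CArG boxes of *ACTG1*, *CNN2*, *ACTC1* and *ACTA1* begin 89 to 109 bases before the start, whereas both boxes of *SRF* begin within 30 bases of it.

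The cytoplasmic actins were by far the most abundant of the 10. *ACTB* (ENSG00000075624, chromosome 7, 5526409 to 5563902, minus strand, 6 exons) had a mean normalized count of 178535 and was in place 11 of the 21944 genes. *ACTG1* (ENSG00000184009, chromosome 17, 81509413 to 81523847, minus strand, 6 exons) had 118933 and was in place 27. Per kb of exon these were 40530 and 29352, so *ACTB* was 1.38 times *ACTG1*. The ratio lay between 1.38 and 1.59 over the 5 scales that were tried, undivided counts included. Together, both genes made up 76.8% of the summed level per kb of the 10 genes.

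The muscle actins were near the middle of all listed genes or below it, and lower among protein-coding genes. *ACTA2* (ENSG00000107796, chromosome 10, 88935074 to 88991339, minus strand, 9 exons) had a mean normalized count of 299, above 50.1% of listed and 30.9% of protein-coding genes. *ACTC1* (ENSG00000159251, chromosome 15, 34790107 to 34795589, minus strand, 7 exons) had one of 133, above 43.1% of listed and 23.6% of protein-coding genes. Per kb of exon they stood at 53.1 and 46.5, above 45.3% and 43.5% of genes. *ACTB* was 763 times *ACTA2* per kb of exon and 445 times per kb of the reference transcript. The latter was the lowest of the 5 scales, undivided counts included. *ACTA2* was 1.14 times *ACTC1* per kb of exon and 2.25 times per coding base, so both ratios moved with the length used. The other muscle actins had mean normalized counts of 154 for *ACTA1*, the gene of skeletal α-actin, and 38.2 for *ACTG2*, that of enteric γ-actin. *ACTA2* and *ACTC1* together held 0.109% of the summed level per kb of the 10 genes.

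**Figure D2:**
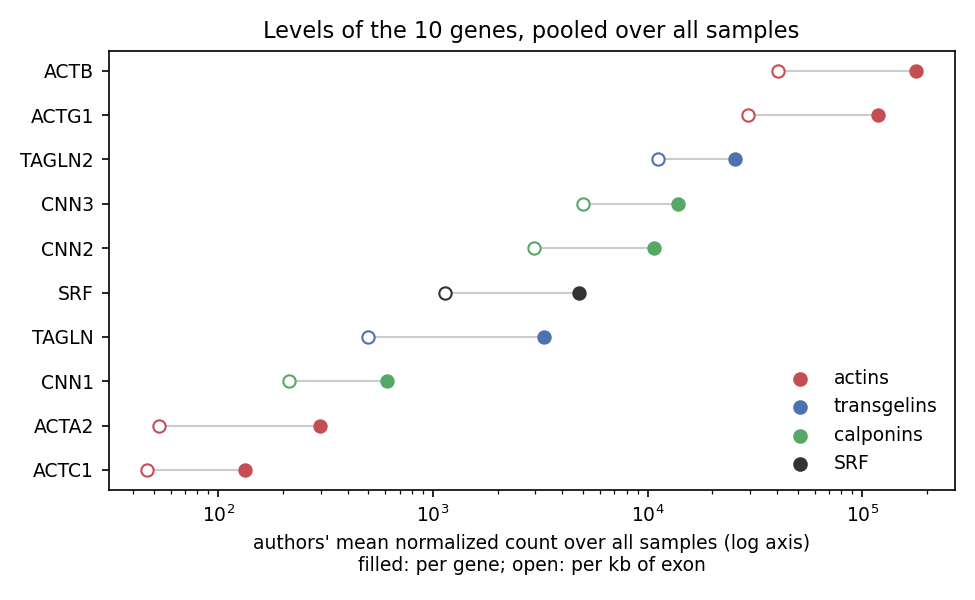
Levels of the 10 genes as the authors' mean normalized count, pooled over samples, on a log axis. Filled points give the level per gene and open points the level per kb of exon, in the colour of the family, without error bars because the values are pooled. The levels run from 133 for *ACTC1* to 178535 for *ACTB*, and the order is the same on both scales.

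The isoforms differ little in coding sequence, which bears on how reads are assigned to them. The last 60 coding bases of the 4 actins, stop codon included, are shown 5′ to 3′ from the GENCODE 44 reference transcripts, with capitals at the 13 positions where the 4 do not all share a base. They begin at coding base 1069 in *ACTB* and *ACTG1* and at coding base 1075 in *ACTA2* and *ACTC1*.
ACTB: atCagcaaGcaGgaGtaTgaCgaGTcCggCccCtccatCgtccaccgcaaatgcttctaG
ACTG1: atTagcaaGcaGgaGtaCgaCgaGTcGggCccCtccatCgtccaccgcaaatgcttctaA
ACTA2: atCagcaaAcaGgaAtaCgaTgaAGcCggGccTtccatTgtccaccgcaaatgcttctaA
ACTC1: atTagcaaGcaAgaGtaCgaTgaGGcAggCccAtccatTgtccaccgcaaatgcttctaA

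Over these bases *ACTB* and *ACTG1* differed at 4 positions and *ACTA2* and *ACTC1* at 8. Over the whole coding sequence *ACTB* and *ACTG1* shared 91.2% of bases, with 99 of 1128 differing, and *ACTA2* and *ACTC1* shared 85.5%, with 164 of 1134 differing. Between the cytoplasmic and the muscle actins identity was 81.7% to 84.5%. The longest stretch without a difference between *ACTB* and *ACTG1* had 59 bases, at coding bases 832 to 890 of *ACTB*.
ACTB and ACTG1, shared stretch: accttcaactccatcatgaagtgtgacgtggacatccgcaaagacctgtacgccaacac

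Reads could also be shared with genes outside the family. Of all stretches of 50 bases in the *ACTB* reference transcript, 10.9% were also found in a transcript of another gene, other actins included. The other genes were led by *ACTBP2*, a processed copy, and by the *POTE* genes, which carry an actin part. At 100 bases the share of *ACTB* stretches found in another gene was 0.175%. For *ACTG1* it was 4.22% at 50 bases and 0 at 75 bases. Of 12 annotated *ACTB* pseudogenes none was listed. Of 21 annotated *ACTG1* pseudogenes 1 was listed, *ACTG1P25*, at 171 mean normalized counts or 0.144% of *ACTG1*. For the muscle actins the shared stretches came mainly from overlapping genes on the other strand. *ACTA2* shared 30.1% of its stretches of 50 bases with *ACTA2-AS1*, and *ACTC1* shared 21.7%, mostly with *GJD2-DT*. Neither of these antisense genes was listed. *FAS*, a further gene on the other strand, covered 6.88% of the exon bases of *ACTA2* over all its transcripts and was listed at 324 mean normalized counts. A non-coding gene on the same strand as *ACTA2*, ENSG00000286116, covered 7.13% of these bases and was not listed. The methods do not state whether counting used the strand. It is therefore unknown here how reads over bases shared with an antisense gene were counted. They could have gone to the muscle actin, to the antisense gene or to neither.

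**Figure D3:**
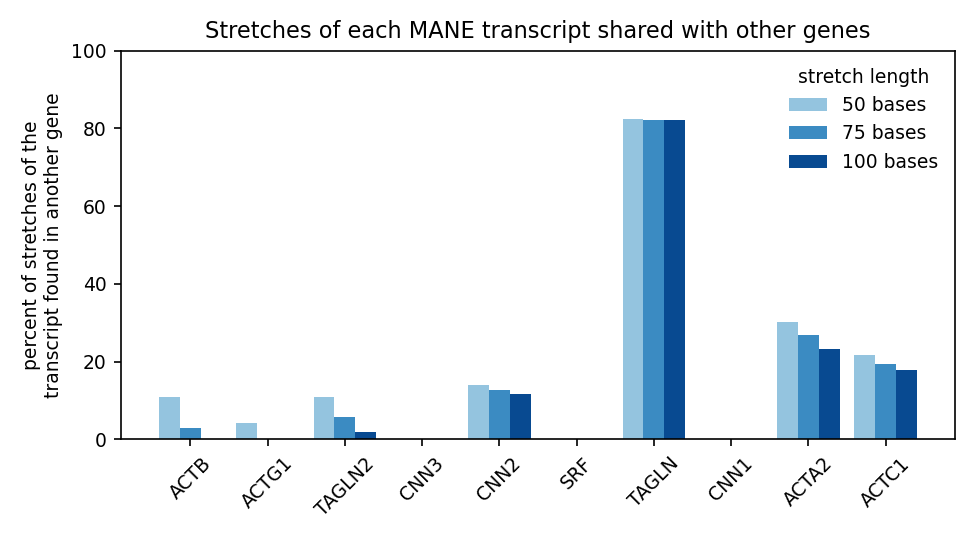
Share of stretches of the reference transcript of each gene that also occur in a transcript of another gene, on either strand. Bars give the percent of all stretches of 50, 75 or 100 bases, in the order of the level of the genes. *TAGLN* reaches 82.4% at 50 bases, whereas *CNN3*, *SRF* and *CNN1* have none.

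The transgelins differed widely in level. *TAGLN2* (ENSG00000158710, chromosome 1, 159918107 to 159925507, minus strand, 5 exons) had a mean normalized count of 25415, above 98.8% of genes. *TAGLN* (ENSG00000149591, chromosome 11, 117199370 to 117207464, plus strand, 5 exons) had one of 3275, above 82.7%. Per kb of exon *TAGLN2* stood at 11236 and *TAGLN* at 500.0, a ratio of 22.5. The ratio fell to 7.09 per coding base, the *TAGLN* reference transcript holding 606 coding bases among 3786. *TAGLN3*, the neuronal member of the family, was at 13.6 mean normalized counts.

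The value of *TAGLN* carries a further limit. Of its stretches of 50 bases, 82.4% were shared with 3 other genes, chiefly with those that overlap it. This share was 82.2% at 100 bases, and none of the shared stretches lay within its coding part. *PCSK7*, a gene of a protein convertase on the other strand, covered 34.1% of its exon bases and had 2129 mean normalized counts of its own. A second gene on the same strand, ENSG00000280143, whose status is still to be settled by experiment, covered 38.1% and was not listed. Whether these overlaps raised or lowered the level of *TAGLN* was not tested. *TAGLN2* shared 10.9% of its stretches of 50 bases, all with the processed copy *TAGLN2P1*. Between the transgelins 70.0% of coding bases were identical, and the longest shared stretch had 19 bases.

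Among the calponins the smooth muscle gene was the lowest. *CNN3* (ENSG00000117519, chromosome 1, 94896949 to 94927223, minus strand, 7 exons), the gene of acidic calponin, had a mean normalized count of 13858.5. *CNN2* (ENSG00000064666, chromosome 19, 1026586 to 1039068, plus strand, 7 exons), of neutral calponin, had 10710, and *CNN1* (ENSG00000130176, chromosome 19, 11538767 to 11550323, plus strand, 7 exons), of basic calponin, had 609. Per kb of exon the levels were 4980, 2942 and 215, so *CNN3* was 1.69 times *CNN2*, and *CNN2* was 13.7 times *CNN1*. *CNN3* held 61.2% of the summed level per kb of the calponins, *CNN2* 36.2% and *CNN1* 2.64%. The calponins were less alike than the actins, with 61.5% to 65.5% of coding bases identical and no shared stretch over 23 bases. *CNN2* shared 14.0% of its stretches of 50 bases with other genes, nearly all with ENSG00000279753 on the other strand, and *CNN1* and *CNN3* shared none.

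**Figure D4:**
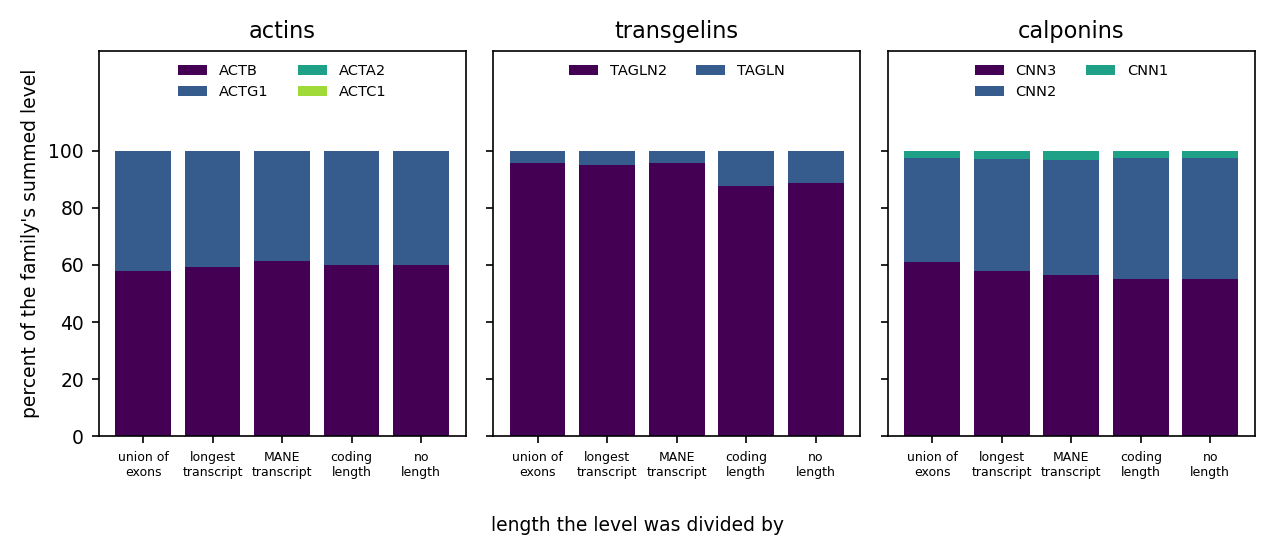
Share of each gene in the summed level of its family, in percent, on 5 scales, which are the level divided by different lengths and the undivided level. *TAGLN2* holds 95.7% of the transgelins per kb of exon and *CNN3* 61.2% of the calponins, and *ACTA2* and *ACTC1* are too low to be seen beside *ACTB* and *ACTG1*.

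Over the 10 genes the order per kb of exon was *ACTB*, *ACTG1*, *TAGLN2*, *CNN3*, *CNN2*, *SRF*, *TAGLN*, *CNN1*, *ACTA2* and *ACTC1*. The median level was 7752 mean normalized counts, with 7 of 10 genes at 1000 or more, against a median of 297 over all listed genes, of which 7968 reached 1000. In each family the members known from muscle, *ACTA2*, *ACTC1*, *TAGLN* and *CNN1*, were below those of other cells, and together they held 0.895% of the summed level per kb of exon and 1.92% per coding base. Most of this sum came from *TAGLN*, whose transcript shares most of its stretches with other genes. The other SRF targets examined spanned a wide range. Of 10 such genes, 8 had at least 1000 mean normalized counts, led by *MYH9*, the gene of a non-muscle myosin heavy chain, at 112670 and *FLNA*, that of the actin crosslinker filamin A, at 97419. *VCL*, the vinculin gene of focal adhesions, was at 32002, and the lowest were *FHL2* at 695 and *TGFB1I1* at 692, both genes of adapters of adhesion sites. Per kb of exon *FLNA* led these targets at 8970, before *MYH9* at 6614, and both were below *TAGLN2* at 11236. The targets *ZYX* at 398, *TGFB1I1* at 128 and *FHL2* at 105 were below *TAGLN* at 500.0 on this scale.

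**Figure D5:**
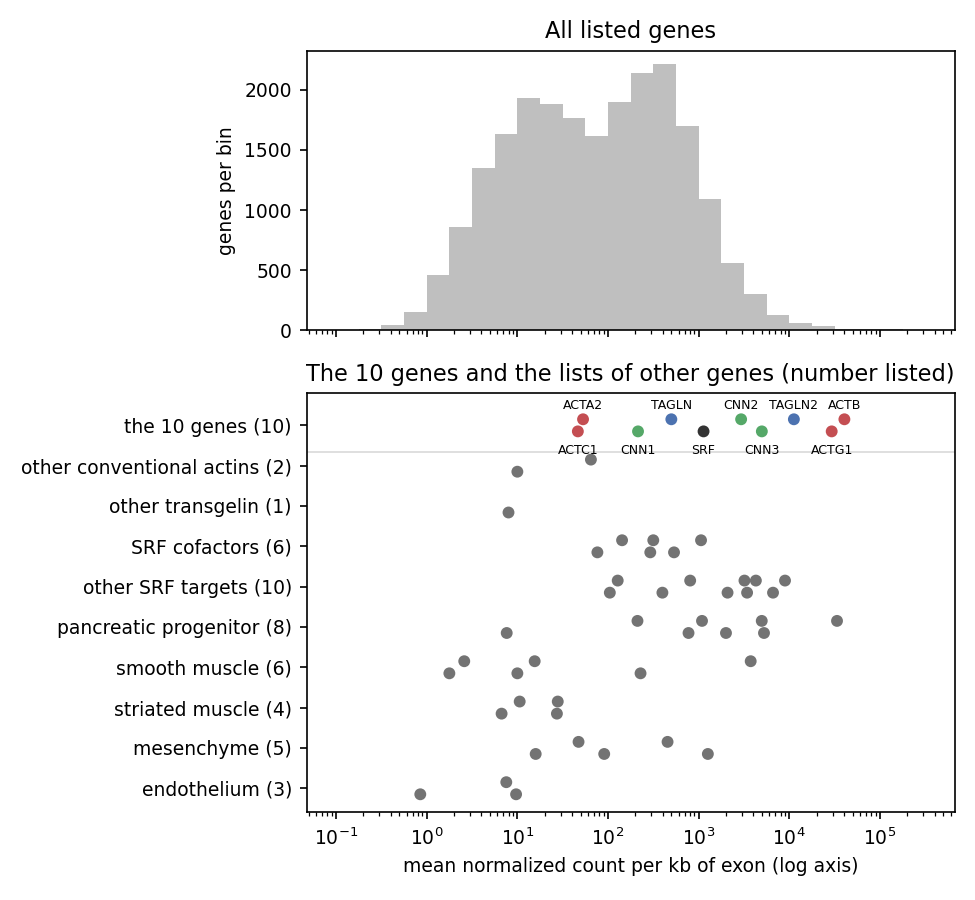
Distribution of the level per kb of exon over all listed genes (upper panel, number of genes per bin) and the level of each of the 10 genes and of the genes in the lists (lower panel), on a shared log axis of mean normalized count per kb. *ACTB* and *ACTG1* lie at 40530 and 29352, near the upper end of all genes, and *ACTA2* and *ACTC1*, at 53.1 and 46.5, lie under the median of 76.2.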

How the data were processed

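Poly(A) RNA of 18 samples was sequenced. The authors aligned reads with STAR 2.7.2d to GRCh38, counted them per gene and fitted DESeq2 1.34.0. The deposited table holds a mean normalized count per gene, a signal that the authors scaled by size factors and averaged over the samples of their fit, together with the fold changes, errors, test statistics and p-values of their own comparisons. Those comparison columns were not used here. Because no values per sample were used, the count test planned for LN411 against FN was not run, no sampling error or interval is given, and library depth is unknown.

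Levels were divided by the union of exons in GENCODE 44 for the 21861 genes (99.6%) with a length, which is a newer annotation than that of the authors. Shared stretches and coding identity came from GENCODE 44 reference (MANE Select) transcripts, aligned with Biopython 1.88. The searches for shared stretches and for motifs were tested on simulated sequences. Promoter windows were from RefSeq. Protein identity was not computed, and coding bases stood in for it, a choice made after seeing the data. All 10 genes were named, with the genes of fixed lists. The genes and lists were chosen with earlier results of these data known.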

Additional observations from a re-analysis of the deposited data

How the results depend on the processing

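The order of the 10 genes was the same for the union of exons, the longest transcript, the MANE Select transcript and undivided counts. Per coding base *TAGLN* passed *SRF*. For the longest transcript, coding length, undivided counts and the MANE Select transcript (the last added after seeing the data), *ACTB* was 1.46, 1.50, 1.50 and 1.59 times *ACTG1*, *ACTA2* was 1.86, 2.25, 2.25 and 2.30 times *ACTC1*, *TAGLN2* was 18.3, 7.09, 7.76 and 21.4 times *TAGLN*, and *CNN3* was 1.47, 1.30, 1.29 and 1.40 times *CNN2*. *ACTB* and *ACTG1* then held 79.7%, 78.4%, 83.4% and 82.9% of the summed level of the 10 genes. The CArG box was found in 4 genes also when only bases before the start counted, and in 5 with 1 mismatch. Against protein-coding genes alone, the percent of genes below moved by over 10 points for 3 of the 10 genes, from 50.1% to 30.9% for *ACTA2*, from 43.1% to 23.6% for *ACTC1* and from 57.2% to 39.9% for *CNN1*, and against genes with a mean of at least 10 for 0 of them.

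No paired analysis was possible because no values per sample were used. The replicate block, DESeq2 size factors, no filter on low counts, leaving out single replicates and the scoring of protein identity were not run.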

Other observations

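*MYOCD*, whose product myocardin is known from heart and smooth muscle, had 9434 mean normalized counts and stood above 95.1% of all listed genes. Of the smooth and striated muscle markers outside the 10 genes, *MYH11*, *MYOD1* and *MYOG* were not listed. *CALD1* and *SMTN* were above 1000, and the other markers were at 203 (*MYH6*) or lower. The genes known from muscle among the 10 stood at 3275 for *TAGLN*, 609 for *CNN1*, 299 for *ACTA2* and 133 for *ACTC1*.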
